A study of Homo sapiens with 12 samples.

Results

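The genes described here are the antisense RNAs measured in CENPA-depleted prostate cancer cells, taken as every gene whose symbol ends in -AS and a number. They number 304 of the 14828 genes in the deposited expression table, 289 with the suffix AS1, 13 with AS2 and 2 with AS3. An antisense RNA is transcribed from the strand opposite to a gene at the same place in the genome, and by convention it carries that gene's symbol before the suffix. Many start close to the start of the sense gene and run away from it, whereas others cross the body of the sense gene and share exon sequence with it. Some are known to act on the neighbouring gene, others act elsewhere in the cell, and most have no known function. For 265 of the 304 the table also held the sense gene, and 263 sense genes served for comparison.

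RNA was measured by RNA-seq in 22Rv1, an established human prostate carcinoma line, carrying 1 of 3 doxycycline-inducible pTRIPZ vectors. These encoded a nontargeting short hairpin RNA (shNT) or 1 of 2 hairpins against CENPA (shCENPA1 and shCENPA2), the centromeric histone H3 variant. The cells had been transduced with lentivirus and selected with puromycin, and all 3 groups received doxycycline at 2 µg/ml for 72 h, so that shNT was also a doxycycline-treated group. Each group had 2 libraries, each sequenced in lanes 7 and 8, and the mean of both lanes was used as 1 replicate (n = 2 libraries per group). The sources do not say that the libraries of a group came from separate cultures, so p-values measure only the spread between these libraries. A difference between the groups may come from less of an RNA per cell or from another mix of cells, such as of cell cycle stages, which cannot be told apart here. With 2 libraries against 2, an exact permutation test cannot give a two-sided p below 0.333, and a call depends on limma pooling the spread over all genes.

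The libraries held 79172294 to 133074655 reads on genes. In shNT, CENPA itself had 1186 and 764 reads. It had 226 and 308 in shCENPA1 and 118 and 201 in shCENPA2, lower as the labels give. The prostate genes HOXB13 and FOLH1 were at a mean log2 RPKM of 8.11 and 7.53, whereas KLK3, the gene of prostate-specific antigen, had 85 to 359 reads per library. The libraries were made with a stranded kit, but the strand setting of the read counting is not given in the sources used here. On GENCODE 44 annotation, 9 genes of the table had all their exon bases under exons of genes on the other strand, and 8 of these 9 had at least 100 reads in every library. Where an antisense RNA shares exon bases with its partner, counting without strand could not have told the reads of both apart.

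Of the 304 antisense RNAs, 300 were placed on GENCODE 44 (GRCh38, the assembly of hg38). A total of 242 matched by their own symbol and 58 through an older symbol, and 43 of the latter are now named as divergent transcripts. The annotation gave 288 of them as long noncoding RNAs, 7 as transcribed pseudogenes and 5 as protein-coding genes, so the suffix does not always mark a noncoding RNA. The protein-coding loci are FAM83H-AS1, MMP24-AS1, NCBP2-AS2, TNRC6C-AS1 and TOPORS-AS1 in the table's naming. Among the 259 pairs in which both genes were tested, the starts of antisense RNA and sense gene lay within 1000 bases of each other in 195. Many of these 195 also share exon bases. Outside them, 50 pairs shared exon bases with starts farther apart, 10 overlapped without shared exon bases, 1 lay apart and 3 were not placed. The starts of the close pairs were a median of 90 bases apart, so that a promoter window of 300 bases often holds both.

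Promoter windows from RefSeq (GRCh38.p14; 250 bases before and 50 from the start of the sense gene) show how closely such pairs are packed. RefSeq windows were found for 237 of the 304 antisense RNAs and for 221 of the 263 sense partners. The 5 windows printed here belong to pairs that the results turn on: FOXD3 and SOX21, whose antisense RNAs rose with them, TMPO, whose antisense RNA was lower with it, GATA3, which fell with its antisense RNA with shCENPA2, and GTSE1, which fell while its antisense RNA did not pass the test. Each is written 5′ to 3′ on the strand of the sense gene, which starts at position 251. Capitals mark the letters CCAAT (or ATTGG on the other strand), TTTGAA (or TTCAAA), the core of the cell cycle homology region element, and 4 E2F-type motifs, TTTCGCGC, TTTGGCGC, TTTCCCGC and TTTGCCGC, searched on both strands. No printed match overlapped another motif.
TMPO promoter, chr12:98515340-98515639, plus strand: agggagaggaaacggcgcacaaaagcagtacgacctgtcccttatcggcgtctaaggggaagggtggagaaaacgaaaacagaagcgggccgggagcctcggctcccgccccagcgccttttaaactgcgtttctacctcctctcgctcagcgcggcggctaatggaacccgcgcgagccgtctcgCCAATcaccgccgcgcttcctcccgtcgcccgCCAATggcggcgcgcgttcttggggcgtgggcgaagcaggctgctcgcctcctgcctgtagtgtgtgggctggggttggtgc
GTSE1 promoter, chr22:46296620-46296919, plus strand: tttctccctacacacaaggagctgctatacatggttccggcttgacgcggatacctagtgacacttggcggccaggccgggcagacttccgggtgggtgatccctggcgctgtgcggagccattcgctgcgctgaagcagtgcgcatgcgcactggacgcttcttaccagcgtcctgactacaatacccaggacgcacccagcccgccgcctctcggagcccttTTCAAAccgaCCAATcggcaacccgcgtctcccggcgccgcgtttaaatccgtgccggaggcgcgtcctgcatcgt
FOXD3 promoter, chr1:63322317-63322616, plus strand: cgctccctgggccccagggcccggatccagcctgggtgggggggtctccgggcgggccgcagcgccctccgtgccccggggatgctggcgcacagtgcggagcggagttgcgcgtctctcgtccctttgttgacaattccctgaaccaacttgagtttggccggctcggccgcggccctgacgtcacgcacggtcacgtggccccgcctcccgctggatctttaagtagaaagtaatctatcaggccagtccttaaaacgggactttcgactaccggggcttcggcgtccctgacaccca
SOX21 promoter, chr13:94712496-94712795, minus strand: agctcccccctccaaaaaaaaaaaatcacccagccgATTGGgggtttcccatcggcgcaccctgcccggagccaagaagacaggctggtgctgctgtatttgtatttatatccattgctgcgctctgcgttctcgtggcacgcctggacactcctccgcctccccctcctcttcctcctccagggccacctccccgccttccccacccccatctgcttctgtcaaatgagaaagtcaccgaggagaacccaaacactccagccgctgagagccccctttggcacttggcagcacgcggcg
GATA3 promoter, chr10:8053391-8053690, plus strand: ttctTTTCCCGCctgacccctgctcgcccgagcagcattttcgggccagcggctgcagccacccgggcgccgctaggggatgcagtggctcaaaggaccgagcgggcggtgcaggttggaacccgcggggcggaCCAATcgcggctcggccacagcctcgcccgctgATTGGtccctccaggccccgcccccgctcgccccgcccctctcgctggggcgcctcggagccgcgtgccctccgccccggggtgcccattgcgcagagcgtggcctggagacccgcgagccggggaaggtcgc

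In 4 of the 5 windows the antisense RNA also starts inside the window, upstream of the sense gene and pointing away from it. FOXD3-AS1 starts at position 142, 109 bases before FOXD3, and SOX21-AS1 at position 80, 171 bases before SOX21. GATA3-AS1 starts at position 94, 157 bases before GATA3, and GTSE1-AS1, now GTSE1-DT, at position 41, 210 bases before GTSE1. TMPO-AS1 differs, since its RefSeq start lies 636 bases inside TMPO and its transcript runs back across the TMPO start. The TMPO window held 2 CCAAT matches, GTSE1 1 CCAAT and 1 TTCAAA match, SOX21 1 ATTGG match, GATA3 1 CCAAT, 1 ATTGG and 1 TTTCCCGC match, and FOXD3 none of these letters. Over 34943 RefSeq promoter windows, 34.6% held CCAAT, 15.2% TTTGAA and 3.3% an E2F-type motif on either strand. A match is a string of letters and was not tested as a binding site.

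The antisense RNAs were weakly expressed compared with their partners. Their mean log2 RPKM (reads scaled to gene length and library size) had a median of 0.36, against 2.44 over the sense partners and 2.3 over all genes. In the shNT libraries the antisense RNA stood above its sense gene in 54 of 265 pairs, and the median difference, antisense minus sense, was -2.05 on the log2 scale. The median antisense RNA rested on 375 reads per library, with a range over all members and libraries of 16 to 92702, and 51 had fewer than 100 reads in some library. The median standard error of a log2 fold change was 0.20 for the antisense RNAs and 0.13 for all genes.

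**Figure D1:**
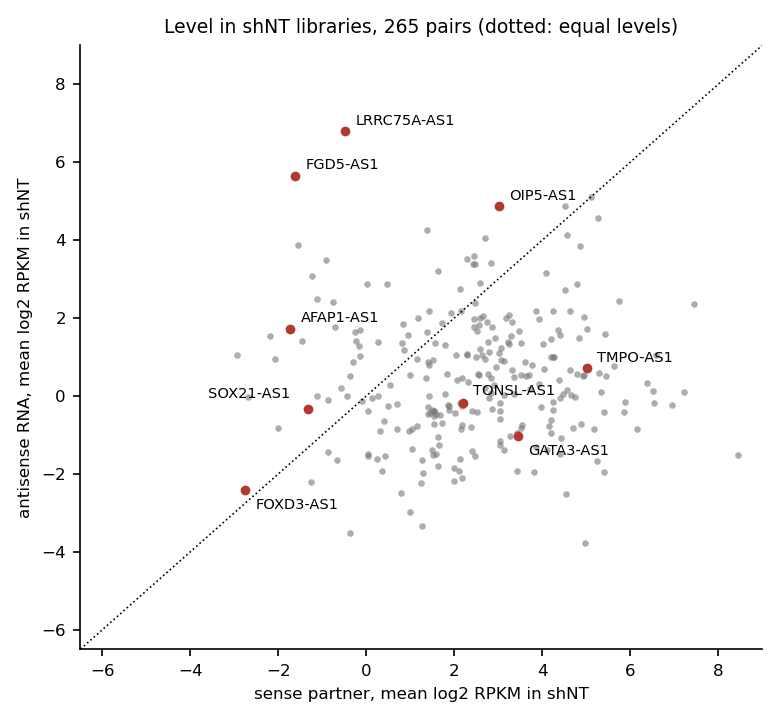
Mean log2 RPKM in the 2 shNT libraries of the sense partner (horizontal) and of the antisense RNA (vertical) for 265 pairs, each point 1 pair, with the dotted line at equal levels. Most points lie below the line, whereas LRRC75A-AS1, FGD5-AS1, OIP5-AS1 and AFAP1-AS1 lie above it.

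The few abundant members did not pass the test. LRRC75A-AS1, annotated as the small nucleolar RNA host gene SNHG29, was the most abundant, with log2 RPKM of 6.81 and 6.81 in shNT, 6.82 and 7.0 in shCENPA1, and 6.60 and 6.88 in shCENPA2. FGD5-AS1, NCBP2-AS2 and OIP5-AS1 were also among the 5 most abundant. The log2 fold changes of these named RNAs lay between -0.22 and 0.13 with both hairpins, with adjusted p of 0.115 or more from limma. OIP5-AS1, known as the counterpart of the conserved vertebrate RNA Cyrano, had 29973 to 54937 reads per library.

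A gene was called when its log2 fold change was beyond 1 in either direction with an adjusted p under 0.05 (limma, Benjamini-Hochberg over all 14624 genes tested). Of the 304 antisense RNAs, 298 were tested, and 6 were under the limit of a mean log2 RPKM of -3. The 6 are GDNF-AS1, HOXA-AS2, MEF2C-AS1, SLC44A3-AS1, TTN-AS1 and ZRANB2-AS2, with means from -5.89 to -3.04. The table itself holds only genes that reached about 1 CPM (reads scaled to the size of the run) in 3 runs, and 5 antisense RNAs did so in runs of 1 group only: C8orf34-AS1, CATIP-AS1, DSCAM-AS1 and RAET1E-AS1 in shCENPA2 and GDNF-AS1 in shNT. CATIP-AS1 and DSCAM-AS1 therefore entered the table through the group in which they were high, and RFX3-AS1, with 4 runs of shNT and 1 of shCENPA2 at that limit, through shNT. Such genes had to differ, so their changes are given as a description and support no count. FOXD3-AS1, FOXD3 and TONSL-AS1 reached the limit in no shNT run. They are in the table only through knockdown runs, in which they were high. The runs of either hairpin alone would have sufficed, but their rise against shNT is likewise a description. GATA3-AS1 reached the limit in no shCENPA2 run. It is in the table only through shNT and shCENPA1 runs, in which it was high, so its fall with shCENPA2 is also a description. FOXD3-AS1, FOXD3, TONSL-AS1 and GATA3-AS1 stay in the counts given below.

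With shCENPA1, 5 antisense RNAs were called (1.68% of those tested), where 2.65% of all genes were called. Of these, 4 were higher and 1 lower, against 0.821% of all genes higher and 1.83% lower. With shCENPA2, 16 were called (5.37%), where 6.13% of all genes were called. Of these, 9 were higher and 7 lower, against 1.68% and 4.45% of all genes. Without RFX3-AS1, CATIP-AS1 and DSCAM-AS1 the calls were 4 higher and 0 lower with shCENPA1 and 7 higher and 7 lower with shCENPA2. The higher calls still include FOXD3-AS1 and TONSL-AS1, and the lower calls with shCENPA2 include GATA3-AS1. Shares over all genes were not computed without genes of this kind, so these reduced counts have no background to be set against. At an adjusted p under 0.05 and any size of change, 10 antisense RNAs (3.36%) differed with shCENPA1 and 35 (11.7%) with shCENPA2, where 7.14% and 18.5% of all genes did. With both hairpins in 1 direction, and not between them, these were 9 (3.02%), where 6.03% of all genes were. With both directions pooled, the share called was below that over all genes in both comparisons and by both rules. The antisense RNAs also had a larger median standard error, 0.20 against 0.13 over all genes, and its part in these shares was not tested. By the rule with the fold threshold the shares were close, 1.68% against 2.65% and 5.37% against 6.13%. At the fold threshold the lower share lay in the decreases. Increases alone, 4 and 9 calls, were a larger share than over all genes with each hairpin. They include FOXD3-AS1 and TONSL-AS1 with both hairpins and CATIP-AS1 and DSCAM-AS1 with shCENPA2. These RNAs are in the table only through the runs in which they were high, so the counts show no excess of increases. The differences in shares were not tested. As a median, antisense RNAs changed by 0.01 (shCENPA1) and 0.06 (shCENPA2) on the log2 scale, and all genes by 0.00 and 0.01. Of the 298, 46 had all 4 knockdown libraries above both shNT libraries and 40 had all 4 below, that is 15.4% and 13.4%, where these shares were 20.3% and 20.5% over all genes.

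Among genes called with both hairpins in the same direction and not called between shCENPA2 and shCENPA1, 4 antisense RNAs were higher and 0 lower, where 0.622% and 1.68% of all genes were higher and lower. The 4 were FOXD3-AS1, SOX21-AS1, TONSL-AS1 and ZNF528-AS1. Of these, FOXD3-AS1 and TONSL-AS1 are in the table only through knockdown runs, so their part of the count is a description. The count of 0 lower comes from limma on the log2 values at the fold threshold. By limma's voom, run on reads recovered from the values, and by limma without the trend, 1 was lower with both, PTPRG-AS1. At an unadjusted p under 0.05 and any size, 18 antisense RNAs (6.04%) were lower and 15 (5.03%) higher with both, where 9.19% and 8.2% of all genes were. PAX8-AS1 and ASH1L-AS1 had an adjusted p under 0.05 with both hairpins at decreases under the fold threshold. PAX8-AS1 fell by 0.78 (limma adjusted p = 0.00829) and 0.87 (adjusted p = 0.00202) on the log2 scale with shCENPA1 and shCENPA2. At an unadjusted p under 0.05, 43 antisense RNAs (14.4%) differed with shCENPA1 and 82 (27.5%) with shCENPA2, where 22% and 32.3% of all genes did.

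**Figure D2:**
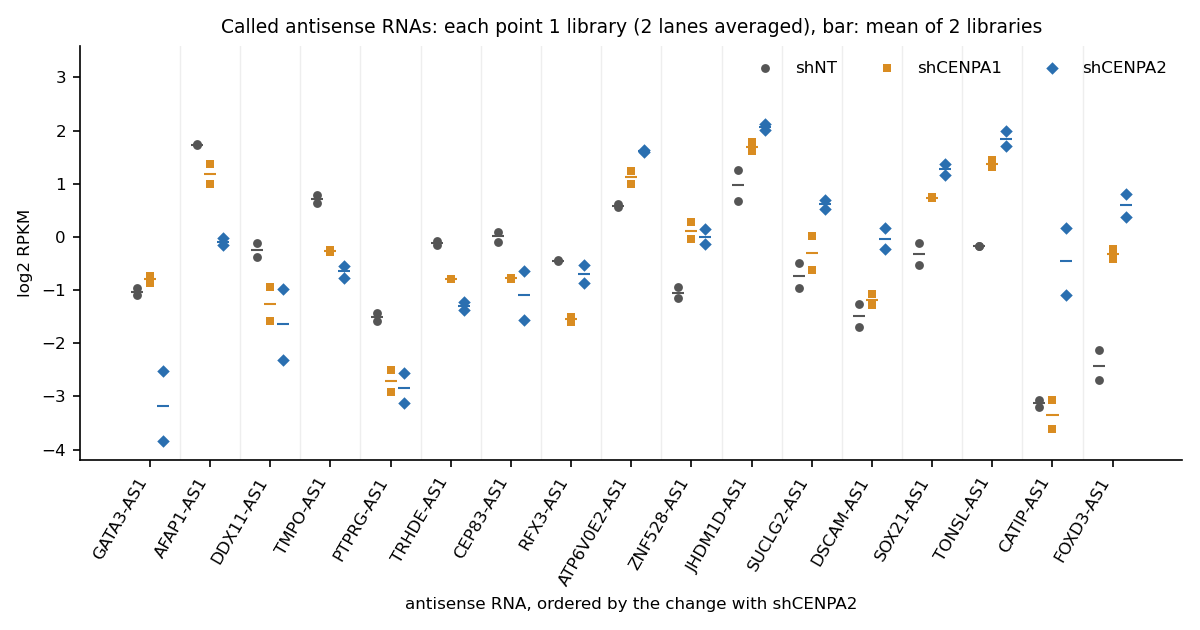
Log2 RPKM of the 17 antisense RNAs called in at least 1 comparison, in order of their change with shCENPA2; each point is 1 library (mean of 2 lanes) and each bar the mean of 2 libraries. FOXD3-AS1, SOX21-AS1, TONSL-AS1 and ZNF528-AS1 stand higher in all knockdown libraries, whereas GATA3-AS1 and CATIP-AS1 move with shCENPA2 alone. ATP6V0E2-AS1 and JHDM1D-AS1, called with shCENPA2 only, also stand higher in all knockdown libraries.

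The largest rise was that of FOXD3-AS1 (chromosome 1, 63320878 to 63324441), which starts next to FOXD3, a forkhead transcription factor of the neural crest and of pluripotent cells. FOXD3-AS1 had log2 RPKM of -2.13 and -2.70 in shNT, -0.23 and -0.41 in shCENPA1, and 0.38 and 0.81 in shCENPA2, from 40 to 732 reads per library. Every knockdown library lay above both shNT libraries, 4.28-fold with shCENPA1 (log2 fold change 2.10, limma adjusted p = 0.00147, standard error 0.26) and 8.09-fold with shCENPA2 (3.02, adjusted p = 7.91e-05, standard error 0.26). FOXD3 mRNA had -2.75 and -2.74 in shNT, -0.23 and -0.28 in shCENPA1, and 0.34 and 0.67 in shCENPA2, on 26 to 446 reads. Its log2 fold changes were 2.49 (limma adjusted p = 0.000266) and 3.25 (adjusted p = 2.2e-05), and the antisense to sense difference of the changes was -0.40 and -0.24, each with a standard error of 0.35. Both genes of the pair thus rose, by amounts that differed by about their error. Neither reached 1 CPM in any shNT run. Both are in the table only through knockdown runs, and their rise is a description. By GENCODE 44 they share 618 exon bases.

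SOX21-AS1 (chromosome 13, 94703454 to 94803430) and SOX21, a SOX-family factor of neural progenitors, also rose together and share no exon bases. SOX21-AS1 had log2 RPKM of -0.53 and -0.12 in shNT, 0.73 and 0.75 in shCENPA1, and 1.17 and 1.38 in shCENPA2, and the groups did not overlap. Its log2 fold change was 1.07 (limma adjusted p = 0.00878, standard error 0.19) with shCENPA1 and 1.60 (adjusted p = 0.000422, standard error 0.19) with shCENPA2. SOX21 rose by 1.28 (limma adjusted p = 0.011) and 2.40 (adjusted p = 0.000149), from 134 and 85 reads in shNT to 397 and 968 with shCENPA2. The SOX21-AS1 call with shCENPA1 was lost without either shCENPA1 library (adjusted p = 0.0659 and 0.0938) and without shNT library 1 (log2 fold change 0.86).

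GATA3-AS1 (chromosome 10, 8050450 to 8053484) followed GATA3, a transcription factor of luminal epithelia and T cells, in a change seen with 1 hairpin. GATA3-AS1 had log2 RPKM of -0.97 and -1.10 in shNT, -0.86 and -0.74 in shCENPA1, and -2.52 and -3.84 in shCENPA2. It fell by 2.15 with shCENPA2 (limma adjusted p = 0.00536, standard error 0.40) on 35 and 23 reads, and the change with shCENPA1 was 0.24 (adjusted p = 0.769). GATA3-AS1 reached 1 CPM in no shCENPA2 run. Its fall with shCENPA2, against shNT or against shCENPA1, is therefore a description. GATA3 mRNA had 3.52 and 3.38 in shNT, 3.94 and 4.0 in shCENPA1, and 2.17 and 2.07 in shCENPA2, a log2 fold change of 0.52 (limma adjusted p = 0.0154) and -1.33 (adjusted p = 4e-05). The direct contrast of shCENPA2 with shCENPA1 was called for both genes, at -2.38 for GATA3-AS1 (limma adjusted p = 0.0228) and -1.85 for GATA3 (adjusted p = 7.82e-05). For GATA3-AS1 that contrast was lost without either shCENPA1 library (adjusted p = 0.129 and 0.313).

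Over the 23 tested antisense RNAs whose symbols begin like those of developmental factors (forkhead, SOX, GATA, PAX and others, with PAXBP1 and PAXIP1 taken in by their letters), the median log2 fold change was 0.03 and 0.13. Of the 23, 2 were called higher with each hairpin, FOXD3-AS1 and SOX21-AS1, and 1 lower with shCENPA2, GATA3-AS1. The 2 HOX cluster antisense RNAs tested, HOXC-AS1 and HOXC-AS3, lay between -0.15 and 0.19. ZEB1-AS1, beside the gene of an epithelial-mesenchymal transition factor, was at -0.03 and -0.23 (limma adjusted p = 0.93 and 0.34).

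**Figure D3:**
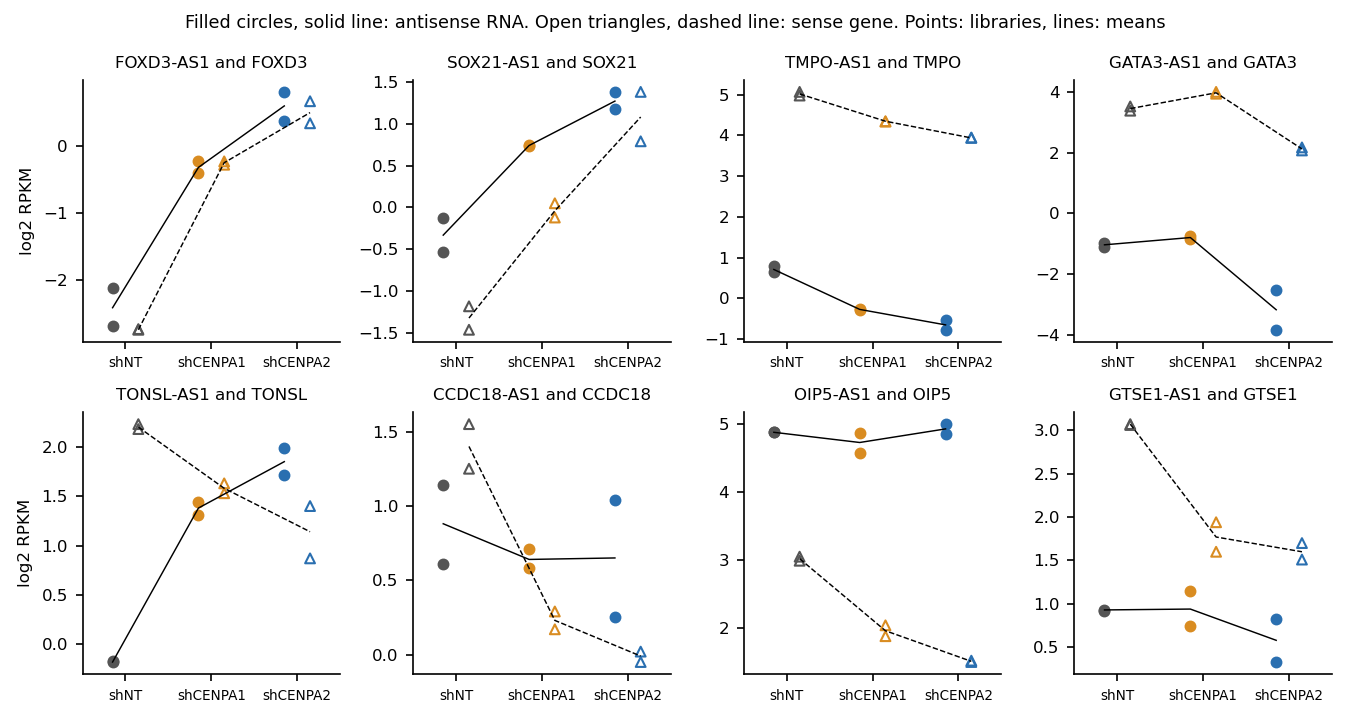
Log2 RPKM of 8 antisense RNAs (filled circles, solid lines through the group means) and of their sense genes (open triangles, dashed lines) in each of 6 libraries; each panel has its own vertical axis. In the FOXD3, SOX21, TMPO and GATA3 panels both lines run in the same direction, in the TONSL panel they run in opposite directions, and in the CCDC18, OIP5 and GTSE1 panels the sense gene falls while the antisense RNA stays near its shNT level or within its spread.

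Among antisense RNAs whose symbols begin like those of listed replication, repair and cell cycle genes, calls went in both directions. GTSE1-AS1 and DDX11-AS1, described separately, are outside that list of letters. Of 7 tested, 1 was called higher with both hairpins (TONSL-AS1) and 2 lower with shCENPA2 (TMPO-AS1 and CEP83-AS1), and the others, KIF9-AS1, MCM3AP-AS1 and OIP5-AS1 among them, were not called. The median over the 7 was -0.15 with shCENPA1 and 0.01 with shCENPA2.

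TMPO-AS1 (chromosome 12, 98512973 to 98516422) accompanies TMPO, which encodes lamina-associated polypeptides of the nuclear envelope. TMPO-AS1 had log2 RPKM of 0.64 and 0.79 in shNT, -0.25 and -0.28 in shCENPA1, and -0.77 and -0.54 in shCENPA2, and all 4 knockdown libraries lay below both shNT libraries. Its log2 fold change was -0.98 with shCENPA1 (limma adjusted p = 0.0134, standard error 0.19), just under the fold threshold, and -1.37 with shCENPA2 (adjusted p = 0.00102, standard error 0.19). TMPO stood at 4.98 and 5.07, 4.34 and 4.35, and 3.94 and 3.95, with changes of -0.68 (limma adjusted p = 0.00147) and -1.08 (adjusted p = 4.47e-05). Both genes decreased, and the difference between their changes was -0.30 and -0.28, each with a standard error of 0.21. The pair shares 646 exon bases, where counting without strand could not have told the reads of both genes apart. In shNT the level difference, antisense minus sense, was -4.31 on the log2 scale. Whether reads of TMPO were counted for TMPO-AS1 was not tested.

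TONSL-AS1 (chromosome 8, 144437675 to 144439971) rose with both hairpins, whereas TONSL fell with shCENPA2. The TONSL protein protects and repairs stalled replication forks. TONSL-AS1 had log2 RPKM of -0.17 and -0.18 in shNT, 1.44 and 1.31 in shCENPA1, and 1.99 and 1.71 in shCENPA2, on 44 and 35, 101 and 116, and 148 and 199 reads. It rose 2.93-fold with shCENPA1 (log2 fold change 1.55, limma adjusted p = 0.000473, standard error 0.16) and 4.08-fold with shCENPA2 (2.03, adjusted p = 4e-05). TONSL stood at 2.18 and 2.23 in shNT, 1.53 and 1.63 in shCENPA1, and 1.40 and 0.87 in shCENPA2, a change of -0.62 (limma adjusted p = 0.0668) and -1.07 (adjusted p = 0.00277). The change of the antisense RNA exceeded that of its partner by 2.18 and 3.10, each with a standard error of 0.23, taking both errors as independent. Of the 6 pairs with both genes called with shCENPA2, this was the 1 in which they moved in opposite directions. TONSL-AS1 is in the table only through knockdown runs, in which it was high, so its rise is a description. TONSL-AS1 lies within TONSL, and the 2 share 59 exon bases of the 428 that GENCODE 44 gives the antisense RNA.

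Several partners that fell with both hairpins had antisense RNAs that were not called. OIP5, a subunit of the Mis18 complex that helps to place CENPA at centromeres, fell while OIP5-AS1 was not called. OIP5 had log2 RPKM of 2.99 and 3.05 in shNT, 2.04 and 1.88 in shCENPA1, and 1.52 and 1.5 in shCENPA2, a change of -1.06 (limma adjusted p = 0.000766) and -1.51 (adjusted p = 4.25e-05). OIP5-AS1 had 4.88 and 4.88, 4.87 and 4.58, and 4.86 and 5.0, a change of -0.15 (adjusted p = 0.455) and 0.05 (adjusted p = 0.808). By GENCODE 44, 92.5% of the OIP5 exon bases lie under exons of genes on the other strand, and OIP5 had 422 to 1529 reads per library.

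GTSE1, a microtubule-associated protein of G2 and mitosis, fell by 1.30 and 1.46 (limma adjusted p = 0.000766 and 0.000149). GTSE1-AS1 (chromosome 22, 46295143 to 46296660) was at 0.93 and 0.92 in shNT, 0.74 and 1.15 in shCENPA1, and 0.82 and 0.33 in shCENPA2, with changes of 0.02 and -0.35 (adjusted p = 0.976 and 0.281). CCDC18, which encodes a coiled-coil protein, had log2 RPKM of 1.25 and 1.55 in shNT, 0.29 and 0.17 in shCENPA1, and 0.02 and -0.05 in shCENPA2, and fell by 1.17 and 1.42 (limma adjusted p = 0.00337 and 0.000529). CCDC18-AS1 had 0.61 and 1.14, 0.58 and 0.71, and 1.04 and 0.25, its groups overlapped, and its changes were -0.23 and -0.23 (limma adjusted p = 0.655 and 0.601, standard error 0.27). In the OIP5, GTSE1 and CCDC18 pairs the antisense change exceeded the sense change by 0.91 to 1.31 with shCENPA1 and by 1.11 to 1.56 with shCENPA2. Their antisense RNAs had standard errors of 0.11 to 0.27.

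A further partner was outside the test. FGD5, a guanine nucleotide exchange factor for Cdc42, had 306 and 221 reads in shNT but 10 and 15 in shCENPA1 and 14 and 1 in shCENPA2, and its mean log2 RPKM of -5.07 put it under the limit. It was singled out after its values were seen. It reached 1 CPM in the 4 shNT runs and in no other run, so it is in the table through the group in which it was high, and its difference is a description. Without the limit on the mean, its log2 fold change was -4.34 and -6.03 (standard error 1.09). FGD5-AS1 had 5.67 and 5.64 in shNT, 5.51 and 5.36 in shCENPA1, and 5.42 and 5.44 in shCENPA2, a change of -0.22 (standard error 0.09) with each hairpin.

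Antisense RNAs that were lower without a called partner included AFAP1-AS1 (chromosome 4, 7754077 to 7778928), an RNA known for high levels in several cancers. It had log2 RPKM of 1.75 and 1.72 in shNT, 1.38 and 0.99 in shCENPA1, and -0.16 and -0.02 in shCENPA2, and the 3 groups did not overlap. The change was -0.55 with shCENPA1 (limma adjusted p = 0.0934) and -1.83 with shCENPA2 (adjusted p = 0.000117, standard error 0.17). AFAP1, an actin filament-associated protein, was at -1.62 and -1.83, -1.39 and -1.92, and -1.53 and -0.75, with changes of 0.07 and 0.59 (adjusted p = 0.928 and 0.255). The step of AFAP1-AS1 between shCENPA1 and shCENPA2 was called at -1.28 (adjusted p = 0.00809), and without shCENPA1 library 1 it was -1.08 with an adjusted p of 0.0693. AFAP1-AS1 and AFAP1 share 5135 exon bases, where counting without strand could not have told the reads of both genes apart.

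PTPRG-AS1, opposite a receptor tyrosine phosphatase gene, had -1.58 and -1.44 in shNT, -2.51 and -2.91 in shCENPA1, and -3.13 and -2.56 in shCENPA2. Its change was -1.20 (limma adjusted p = 0.0651) and -1.33 (adjusted p = 0.0228), against 0.30 and 0.61 for PTPRG (adjusted p = 0.281 and 0.0206), so that antisense and sense differed by -1.51 and -1.94 (standard error 0.37). The shCENPA2 call of PTPRG-AS1 was lost without shCENPA2 library 1 (-1.05), shNT library 1 or shNT library 2. PTPRG-AS1 and PTPRG share 1343 exon bases, with the same limit on counting without strand.

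TRHDE-AS1, which shares its start region with the gene of the thyrotropin-releasing hormone-degrading enzyme, had -0.15 and -0.07 in shNT, -0.80 and -0.79 in shCENPA1, and -1.37 and -1.22 in shCENPA2. It fell by 1.18 with shCENPA2 (limma adjusted p = 0.00391, standard error 0.21), and TRHDE fell by 1.45 (adjusted p = 0.0122). The changes with shCENPA1 were -0.68 and -0.64 (adjusted p = 0.0865 and 0.28), and this pair shares 1085 exon bases.

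RFX3-AS1, beside a transcription factor gene of ciliated cells, was the 1 antisense RNA called lower with shCENPA1. It had -0.44 and -0.45 in shNT, -1.5 and -1.6 in shCENPA1, and -0.53 and -0.86 in shCENPA2, a change of -1.10 and -0.25. As it entered the table through shNT, the first value is a description. RFX3 itself was at 0.09 and 0.37 (limma adjusted p = 0.788 and 0.14). RFX3-AS1 had 44 to 124 reads per library, and its call was lost without any 1 of the 4 shCENPA1 and shNT libraries.

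CEP83-AS1 and DDX11-AS1 were called with shCENPA2 only narrowly. CEP83-AS1, beside a gene of the centriole's distal appendages, had a log2 fold change of -0.79 (limma adjusted p = 0.156) and -1.11 (adjusted p = 0.0287), and the latter call was lost without shCENPA1 library 1 or 2, shCENPA2 library 2 (-0.65), or shNT library 1 or 2 (adjusted p from 0.0635 to 0.125). DDX11-AS1, beside the gene of a helicase of sister chromatid cohesion, was at -1.02 (adjusted p = 0.185) and -1.40 (adjusted p = 0.0436), and its call was lost without the same libraries (adjusted p from 0.0611 to 0.147, and -0.73 without shCENPA2 library 2). Near-identical copies of DDX11 exist elsewhere in the genome, so the reads of both DDX11 genes are uncertain. DDX11 was at -0.73 and -0.92 (adjusted p = 0.0134 and 0.00184).

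ZNF528-AS1 (chromosome 19, 52388836 to 52397791), beside a zinc finger gene, rose with both hairpins without a called partner. It had log2 RPKM of -1.15 and -0.94 in shNT, 0.28 and -0.03 in shCENPA1, and 0.15 and -0.14 in shCENPA2, and all knockdown libraries lay above shNT. Its log2 fold change was 1.17 (limma adjusted p = 0.0112, standard error 0.22) and 1.05 (adjusted p = 0.00887), against 0.32 and 0.31 for ZNF528 (adjusted p = 0.21 and 0.146). The shCENPA1 call was lost without either shCENPA1 library (adjusted p = 0.0851 and 0.0569) or shNT library 1 (adjusted p = 0.0721), and the shCENPA2 call without shCENPA2 library 1 (0.90) or shNT library 1 (0.94). Of the 13 antisense RNAs whose symbols begin with ZNF or ZSCAN, ZNF528-AS1 was the 1 called with either hairpin, and their median was 0.21 and 0.27. Zinc finger genes with other symbols are outside these letters.

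CATIP-AS1, which has no partner in the table, stood high in the shCENPA2 libraries. It had 32 and 23 reads in shNT, 16 and 32 in shCENPA1, and 234 and 159 in shCENPA2, at log2 RPKM of -3.07 and -3.19, -3.62 and -3.07, and 0.17 and -1.09. The change was -0.22 (limma adjusted p = 0.806) with shCENPA1. With shCENPA2 it was 2.67 (standard error 0.43), a description, since the gene is in the table through that group. Between the hairpins it was 2.89, and that call was lost without either shCENPA1 library.

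DSCAM-AS1, an RNA known from estrogen receptor-positive breast cancer that lies inside the cell adhesion gene DSCAM, also entered the table through shCENPA2. It had 79 and 46 reads in shNT, 67 and 75 in shCENPA1, and 163 and 203 in shCENPA2. Its change was 0.30 (limma adjusted p = 0.533) with shCENPA1 and, as a description, 1.45 with shCENPA2, and DSCAM was at 0.48 and 0.59 (adjusted p = 0.171 and 0.0545).

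The remaining 3 called antisense RNAs rose with shCENPA2 beside genes of metabolism and chromatin. SUCLG2-AS1, beside a subunit gene of succinate-CoA ligase, had -0.97 and -0.49 in shNT, 0.02 and -0.63 in shCENPA1, and 0.52 and 0.70 in shCENPA2, a change of 0.43 (limma adjusted p = 0.386) and 1.34 (adjusted p = 0.00708). ATP6V0E2-AS1, beside a gene of the vacuolar proton pump, had 0.56 and 0.61, 0.99 and 1.24, and 1.64 and 1.59, a change of 0.53 (adjusted p = 0.0655) and 1.03 (adjusted p = 0.00137). Both partners changed in the same direction by less, SUCLG2 by 0.45 (adjusted p = 0.00758) and ATP6V0E2 by 0.46 (adjusted p = 0.0186) with shCENPA2.

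JHDM1D-AS1 is now named KDM7A-DT after the histone demethylase gene beside it. It had log2 RPKM of 1.25 and 0.68 in shNT, 1.62 and 1.78 in shCENPA1, and 2.02 and 2.12 in shCENPA2, a change of 0.73 (limma adjusted p = 0.0474) and 1.10 (adjusted p = 0.00335). Without shNT library 2 the latter was 0.81. KDM7A, which the table holds under its current symbol and which the naming rule misses, was at 0.00 and 0.21 (adjusted p = 0.999 and 0.413).

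Between the hairpins, 3 antisense RNAs were called (1.01%), 1 higher and 2 lower with shCENPA2, where 0.732% of all genes were called, 0.178% higher and 0.554% lower. They are CATIP-AS1, which entered the table through shCENPA2, AFAP1-AS1, and GATA3-AS1, which is in the table only through shNT and shCENPA1 runs. Without shCENPA1 library 1 the count was 0, without shCENPA1 library 2 it was 1, and without shCENPA2 library 1 it was 7.

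Over the 259 pairs, antisense and sense changed in the same direction in 146 pairs (56.4%) with shCENPA1 and in 144 (55.6%) with shCENPA2. Pearson's r of the 2 changes was 0.29 and 0.37 across pairs, and Spearman's rho 0.16 and 0.18. Pairs are not independent replicates, and both changes of a pair come from the same libraries and the same shNT control. Without the FOXD3, SOX21 and GATA3 pairs, left out after their values were seen, r was 0.11 and 0.15. Leaving out pairs with large changes in the same direction must lower r, so the drop shows only their weight on it. With shCENPA1, both genes of a pair were called in 2 pairs, the antisense RNA alone in 3 and the sense gene alone in 4. With shCENPA2, these numbers were 6, 8 and 6. Among the partners of tested pairs, 6 genes were called with shCENPA1 and 12 with shCENPA2.

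**Figure D4:**
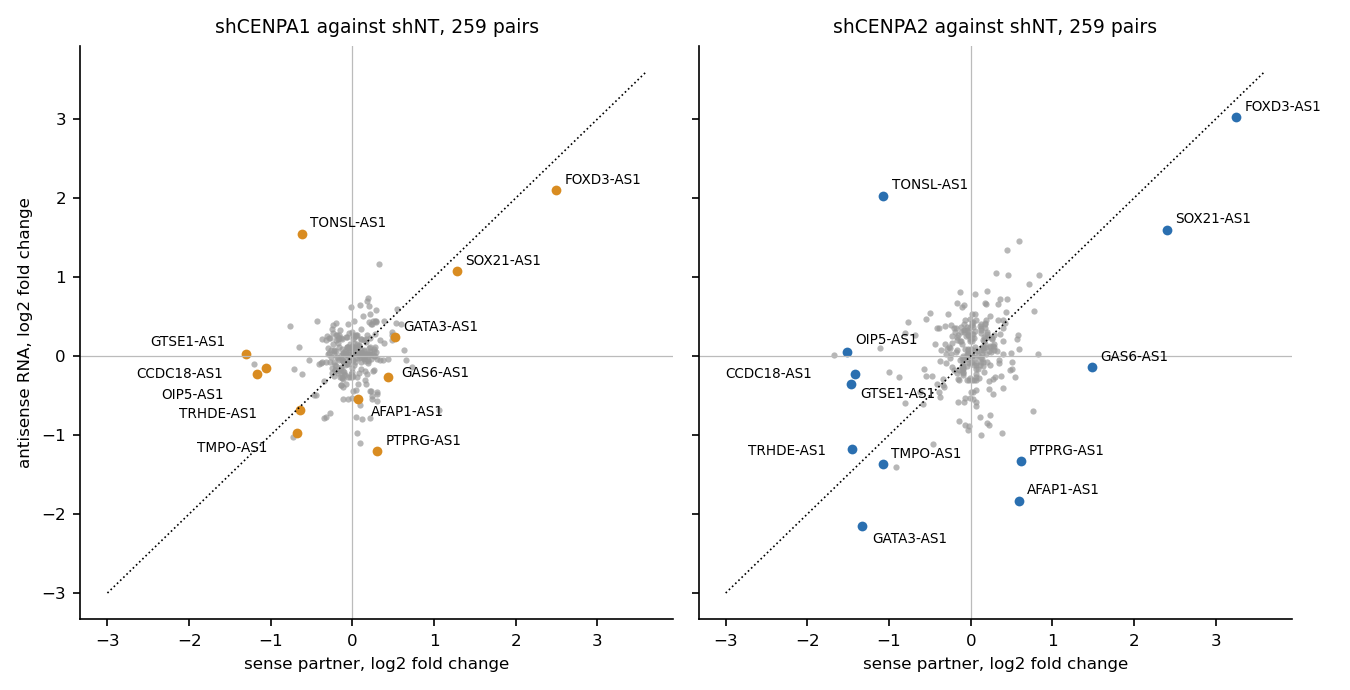
Log2 fold change against shNT of the sense partner (horizontal) and of the antisense RNA (vertical) for 259 pairs with shCENPA1 (left) and shCENPA2 (right); the dotted line marks equal changes. FOXD3 and SOX21 lie in the upper right of both panels, TONSL lies in the upper left, and CCDC18, OIP5 and GTSE1 lie left of 0 with an antisense change between -0.35 and 0.05.

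The pairs were also described by their arrangement. In the 195 pairs with starts within 1000 bases, r across pairs was 0.40 with shCENPA1 and 0.55 with shCENPA2, and FOXD3, SOX21 and GATA3 are all among them. Without these 3 it was 0.17 and 0.30. Many pairs of this class also share exon bases, such as FOXD3 (618), TMPO (646) and TRHDE (1085). Counting without strand could thus affect r in this class too. In the 50 pairs that share exon bases with starts farther apart, r was -0.08 and -0.28, and TONSL, OIP5, PTPRG and AFAP1 are among these. Without TONSL it was 0.09 and -0.14, so the sign with shCENPA1 rested on 1 pair. The share of pairs changing in the same direction was nearly equal in both classes, 56.9% and 55.9% against 58.0% and 54.0%. The difference between these correlations was not tested. Of the antisense RNAs in the first class 4 and 10 were called with shCENPA1 and shCENPA2, and in the second 1 and 3.

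**Figure D5:**
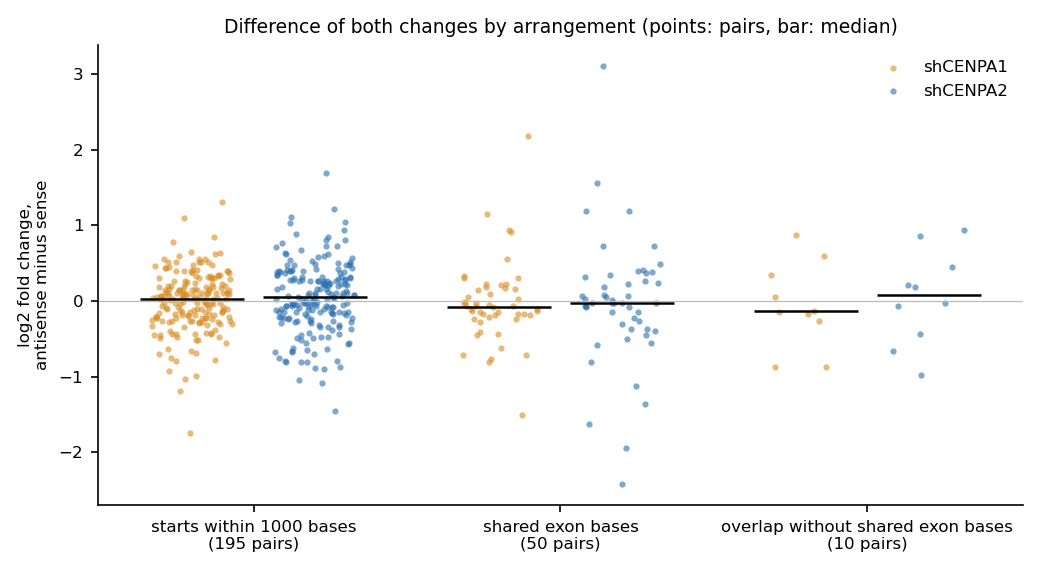
Difference between the log2 fold changes of antisense RNA and sense gene (antisense minus sense) by arrangement of the pair, for shCENPA1 and shCENPA2; points are pairs, with a horizontal jitter that carries no value, and bars are medians. The highest point in each colour is the TONSL pair, at 2.18 and 3.10.

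Ranked by the smaller of the differences with both hairpins, the pairs with the lowest antisense RNA relative to the sense gene were TMEM254-AS1, NFYC-AS1, EMC3-AS1 and FAM13A-AS1 besides PTPRG-AS1. TMEM254-AS1 was at -0.97 and -0.85 (limma adjusted p = 0.0807 and 0.0721), against 0.06 and 0.20 for TMEM254, a transmembrane protein gene. NFYC-AS1, beside a subunit gene of the CCAAT-binding factor NF-Y, was at -0.80 and -0.77 (adjusted p = 0.193 and 0.143), against 0.12 and 0.11 for NFYC. EMC3-AS1, which starts within the gene of an endoplasmic reticulum membrane complex subunit and is annotated as a pseudogene, was at -0.57 and -0.75 (adjusted p = 0.126 and 0.0268), against 0.30 and 0.23. FAM13A-AS1 was at -0.77 and -1.0 (adjusted p = 0.246 and 0.0833), against 0.04 and 0.12. On the other side, MYLK-AS1 was at 0.38 and 0.43 (adjusted p = 0.305 and 0.175), against -0.76 and -0.77 for MYLK, the gene of myosin light chain kinase. The antisense to sense differences of the first 4 ran from -1.12 to -0.81 and those of MYLK-AS1 were 1.15 and 1.19, with standard errors of 0.23 to 0.39, and 1 of these antisense RNAs, EMC3-AS1, had an adjusted p under 0.05.

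GAS6-AS1 gave a further case of a partner that moved alone. GAS6, the ligand of the TAM receptor kinases, rose by 1.48 with shCENPA2 (limma adjusted p = 0.0173), from 146 and 174 reads in shNT to 467 and 514, and was at 0.44 with shCENPA1. GAS6-AS1 had 0.78 and 1.33, 0.90 and 0.67, and 1.15 and 0.67 on the log2 RPKM scale, a change of -0.27 and -0.14 (adjusted p = 0.537 and 0.712). MCM3AP-AS1 (-0.44 and -0.09), SBF2-AS1 (-0.43 and -0.48) and PSMA3-AS1 (-0.11 and 0.07), known from other cancers, also had adjusted p above the threshold, the smallest 0.0596 for SBF2-AS1 with shCENPA2. HOXA-AS2 was listed with 36 to 107 reads and not tested, and SOCS2-AS1 and CDKN2B-AS1 were not analysed here.

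Below the fold threshold, 19 further changes with shCENPA2 had an adjusted p under 0.05, 12 higher and 7 lower, and 5 with shCENPA1, 2 higher and 3 lower. These were 6.38% and 1.68% of the antisense RNAs, where 12.4% and 4.49% of all genes fell in this class. ATP2B1-AS1, beside the gene of a plasma membrane calcium pump, rose with both hairpins, by 0.63 (limma adjusted p = 0.0234) and 0.72 (adjusted p = 0.00609). KIF9-AS1, beside a kinesin gene, rose by 0.66 with shCENPA2 (adjusted p = 0.0114), and SEPSECS-AS1, beside the gene of selenocysteine synthase, fell by 0.82 (adjusted p = 0.00478). These 3 and PAX8-AS1 and ASH1L-AS1 were named after their values were seen. Of the 10 antisense RNAs whose symbols begin like those of listed kinase, phosphatase or GTPase regulator genes, PTPRG-AS1 was the 1 called. The median over the 10 was -0.05 and -0.11. That list of letters leaves out other such genes, MYLK among them.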

How the data were processed

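Strand-specific mRNA libraries of 22Rv1 cells were sequenced by the authors, who used TrimGalore for trimming, STAR for alignment to hg38, HTSeq for counting and edgeR for calls; versions, the annotation and the strand setting are not given in the sources used here. The deposited values are log2 RPKM, 1 column for each run, over 14828 genes. The 12 runs are 6 libraries in 2 lanes each: the chi-square per gene was 1.24 to 1.31 between lanes of a library and 26.5 to 80.1 between libraries of a group, so lanes were averaged and n is 2 libraries. Groups come from the sample labels.

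The test was limma 3.58.1 in R 4.3.3 on the 14624 genes whose mean log2 RPKM reached -3 (trend in the variance, 3 groups in one fit, no covariate), with Benjamini-Hochberg adjustment over all of them. Calls needed a log2 fold change beyond 1 and an adjusted p under 0.05. The authors' constant, 0.25 reads at the mean run size, draws changes of weakly expressed genes towards 0. Standard errors of a difference between antisense and sense change combine both as independent. The steps between deposited values gave back whole reads for 100.0% of genes (largest distance from a whole read 2.8e-08, tolerance 0.0001). They gave the depth, 79172294 to 133074655 reads per library, and limma's voom on them called 399, 906 and 114 genes with shCENPA1, shCENPA2 and between both. The recovery and the fit were tested on simulated data.

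Named are all called antisense RNAs with their partners, the pairs whose sense gene was called with both hairpins, the 5 most abundant, a list of known antisense RNAs, the 5 largest antisense to sense differences in each direction by the smaller of the values with both hairpins, both on the same side (50 or more reads in some library), and those marked as named after their values were seen. Members, lists and partner groups were chosen with earlier results of these data known. Alternatives covered the filter, added constants, scaling, the variance model, the replicate block, lanes as replicates, each library left out, recovered reads and the fold threshold. Positions are from GENCODE 44 and promoter windows from RefSeq. Every column of the table was used. Some genes that the naming rule takes in are not reported here.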

Additional observations from a re-analysis of the deposited data

Results flagged for a closer look

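Of the called antisense RNAs, 3 differed between the hairpins in the direct contrast of shCENPA2 with shCENPA1 (limma, Benjamini-Hochberg over all genes tested). AFAP1-AS1 was lower with shCENPA2 by a log2 fold change of -1.28 (adjusted p = 0.00809), CATIP-AS1 was higher by 2.89, a description since it is in the table through shCENPA2 alone, and GATA3-AS1 was lower by -2.38 (adjusted p = 0.0228). GATA3-AS1 is in the table only through shNT and shCENPA1 runs, so its difference is also a description. CENPA itself had 226 and 308 reads with shCENPA1 and 118 and 201 with shCENPA2, and its part in these differences was not tested.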

How the results depend on the processing

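The 24 named calls gave 378 values under the alternatives, of which 316 kept the call, 62 lost it and 0 turned. AFAP1-AS1, FOXD3-AS1 and TONSL-AS1 kept their shCENPA2 calls under every alternative run, and 13 of 24 calls were kept whichever library was left out. FOXD3-AS1 and TONSL-AS1 are in the table only through knockdown runs under each of these alternatives. With 1 added to RPKM before the logarithm, which shrinks changes of weak genes, 21 named calls were lost: 0 antisense RNAs were called with shCENPA1, 3 with shCENPA2, 0 between the hairpins and 0 with both, 1 sense partner was called with shCENPA1, and the median with shCENPA2 was 0.03. With 0.1 added, 3 antisense RNAs were called with shCENPA1 and 2 with both. With no fold change needed, 10 were called with shCENPA1, 35 with shCENPA2 and 9 with both, that is 3.36%, 11.7% and 3.02%, where 7.14%, 18.5% and 6.03% of all genes were. Between the hairpins, 1 was called at a mean log2 RPKM of at least -1, since fewer genes were tested, and 7 with lanes as 4 replicates. Leaving out 1 library gave 2 to 7 calls with shCENPA1, 0 to 7 between the hairpins, 2 to 5 with both and a median with shCENPA2 of 0.03 to 0.06. For shCENPA1 the count was 2 without its library 1, 3 without its library 2 and 3 without shNT library 1, and for both hairpins it was 2 without either shCENPA1 library. Quantile normalization put the medians at 0.06 and 0.12, and the shCENPA2 median was 0.05 at the stricter filter and 0.09 with medians set equal or with voom on recovered reads; the cause was not tested.

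The library numbers were no pairing: differences between libraries 1 and 2 correlated at -0.06, -0.10 and -0.15 between groups. With the replicate block, 5, 15, 4 and 4 antisense RNAs were called with shCENPA1, with shCENPA2, between the hairpins and with both, and DDX11-AS1 lost its call (-1.40, adjusted p = 0.0535). Low depth limits the weak members most, since 51 had fewer than 100 reads in a library, and 2 libraries per group limit all calls.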
